A study of Mus musculus with 7 samples.

Results

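The genes described here make the machinery that charges transfer RNAs with amino acids and starts and extends protein chains. They were chosen by a rule on symbols that uses no measured value but was set with earlier results of these data known. It took initiation factors (symbols of Eif and a digit, leaving out the interferon-induced kinase gene Eif2ak2) and elongation factors with their modifiers (Eef1 and Eef2). Aminoacyl-tRNA synthetases of the cytosol and of mitochondria were also taken. The choice gave 87 of the 9999 named genes: 45 initiation factor genes, 10 elongation factor genes, 19 cytosolic synthetase genes and 13 mitochondrial synthetase genes. Genes of these families that were not analysed here include Eif1, Eif2s1, Eif3g, Eif4g1, Eef1g, Dars, Aars2, Mars2 and Sars2.

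Signal was measured on 7 Affymetrix arrays that carried total RNA of RAW264.7, an established macrophage-like line from mouse. The 3 control arrays carry the genotype label RAW WT and the 4 others the label RAW GfI1-1, taken here as the Gfi1 knockout of the series title. The series' design text speaks of 7 samples but numbers both groups 1 to 3, so n = 4 rests on the sample titles. Gfi1 encodes a zinc finger repressor of transcription in blood cells. Both groups were grown in the same serum-containing medium, had no treatment and are marked as time point T0. Whether the knockout cells were 1 clone or several is not given in the sources used here, and the replicates are called biological without naming separate cultures, so the p-values speak only of the spread among these 7 arrays, which may be technical.

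Protein synthesis starts when initiation factor eIF2 brings the initiator transfer RNA to the small ribosomal subunit, eIF3 and eIF1 prepare that subunit, and the eIF4 factors bind the messenger's cap and unwind its leader. The exchange factor eIF2B reloads eIF2 with GTP, and kinases that phosphorylate eIF2 under stress slow this step while the transcription factor ATF4 is made. Elongation factors eEF1 and eEF2 then deliver charged transfer RNAs and move the ribosome along. Each synthetase joins 1 amino acid to its transfer RNAs, mostly with separate genes for the cytosol and for mitochondria, and many cytosolic synthetase genes are known ATF4 targets.

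The arrays labelled knockout did not form 1 tight group. Over all 19431 probe sets the SD of the log2 difference was 0.13 to 0.19 between wild-type arrays, 0.16 between knockout replicates 1 and 2, 0.14 between replicates 3 and 4, and 0.52 to 0.54 between these pairs. Knockout replicates 1 and 2 were also farther from wild type (0.80 to 0.81) than replicates 3 and 4 (0.56 to 0.57), and counts are given with and without each pair. The only Gfi1 probe set read 2.66, 2.85 and 2.98 in wild type and 4.93, 5.02, 3.97 and 3.97 in the arrays labelled knockout, so it was higher there, by 1.65 (SE 0.30, adjusted p = 0.00447), with wild type under the limit of the lowest 5% of genes (3.51). The position of this probe set with respect to the edited bases is not given in the sources used here, so its signal is no check of the labels, on which every direction rests. Of 11 macrophage markers 10 were measured, all above the lowest 5% of genes. Of these 10 markers 7 fell (against 21.6% of all genes) and 0 rose (against 21.5%). Where arrays that resemble each other were treated as random blocks, 3 of them fell, against 4.56% of all genes. The summed linear signal of the measured markers was 31374 to 31676 in wild type and 23031 to 23652 in knockout. Of 8 T cell, 6 B cell and 8 neutrophil markers 0 were among the named genes, of 7 fibroblast markers only Pdgfrb was, among the lowest 5% of genes, and of 8 erythroid markers only Hba-a2 was (linear signal 47.3 to 53.5 in wild type, 28.1 to 33.98 in knockout). The part of the lower macrophage markers in the results was not tested. In bulk RNA, fewer cells of a type and less RNA per cell cannot be told apart.

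Among the translation genes, rises in knockout outnumbered falls, and the cytosolic synthetases accounted for 15 of the 31 rises. Differences are knockout minus wild type in log2 signal, and a gene rose or fell where limma's adjusted p, over all 9999 genes, was under 0.05. Of the 87 genes, 31 rose (35.6%, against 21.5% of all genes) and 9 fell (10.3%, against 21.6%), while 47 did not pass. Calls in either direction made up 46.0%, close to the 43.1% of all genes. The median difference over the 87 genes was 0.15, against -0.01 over all genes, and 61 of 87 differences were above 0 (70.1%, against 49.3%). Without knockout replicates 1 and 2 the counts were 35 higher and 12 lower, against 27.7% and 29.3% of all genes (57% in either direction). Without replicates 3 and 4 they were 42 and 13, against 34.1% each way (68.1% in all). Among the 75 of the 87 genes that were not under the 40th percentile of signal, 34 rose and 8 fell, where 24.9% and 24.1% of the 5999 genes kept did (49% in all). A block on replicate number left 21 and 5, with 38.1% of all genes called.

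The median difference was 0.42 for cytosolic synthetases, 0.17 for mitochondrial synthetases, 0.12 for initiation factors and 0.07 for elongation factors. Per array, the median of the cytosolic synthetases was 0.50, 0.44, 0.39 and 0.39 in knockout replicates 1 to 4 and between -0.01 and 0.03 in the wild-type arrays. Medians of the mitochondrial enzymes were 0.23, 0.18, 0.11 and 0.10 in the knockout arrays, and wild-type replicate 1 stood as high as the last, at 0.10. The initiation factors had 0.05, 0.14, 0.09 and 0.07. The lowest knockout median of the cytosolic synthetases lay above the highest of the other 3 classes. These medians are descriptions and were not tested.

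**Figure D1:**
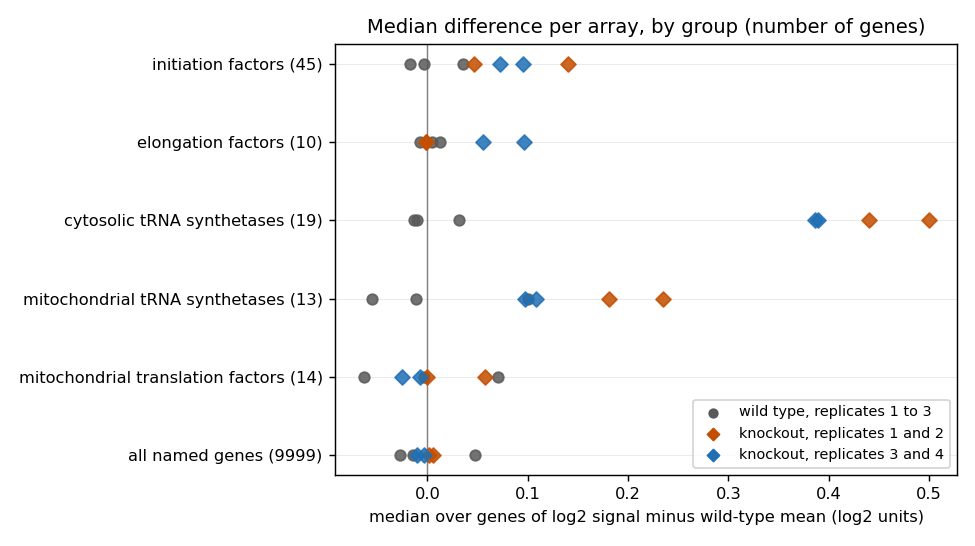
The x axis gives the median, over the genes of each group, of log2 signal minus the wild-type mean, with 1 point per array: circles are wild type, and diamonds are knockout replicates 1 and 2 (orange) and 3 and 4 (blue). The cytosolic synthetase medians of the knockout arrays lie between 0.39 and 0.50, while those of all named genes lie near 0.

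Of the 19 cytosolic synthetase genes, 15 rose and 0 fell in knockout (78.9%, against 21.5% of all genes called higher), and all 19 differences were above 0. Cars, which charges cysteine transfer RNA, had the largest rise of the class. Its log2 signal was 7.58, 7.55 and 7.49 in wild-type replicates 1 to 3 and 8.72, 8.70, 8.16 and 8.22 in knockout replicates 1 to 4, a difference of 0.91 (SE 0.16, adjusted p = 0.00364). All 4 knockout arrays lay above all wild-type arrays, and replicates 1 and 2 lay above 3 and 4. Hars, the histidine enzyme, read 9.77, 9.78 and 9.77 in wild type and 10.65, 10.58, 10.55 and 10.48 in knockout, a difference of 0.79 (SE 0.06, adjusted p = 0.000144). Its wild-type arrays were nearly equal and far below each knockout array. Tars, for threonine, read 9.14, 9.04 and 9.08 in wild type and 9.95, 9.89, 9.77 and 9.81 in knockout, again with no overlap, and a difference of 0.77 (SE 0.07, adjusted p = 0.000223). These 3 enzymes were the only cytosolic synthetases still past the threshold when the similar knockout arrays and the wild-type arrays were treated as random blocks (adjusted p = 0.0331, 0.0165 and 0.0210), where 4.48% of all genes were called higher.

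Smaller rises were measured for the valine enzyme gene Vars, at 0.56 (SE 0.09, adjusted p = 0.00218), and for the lysine enzyme gene Kars, at 0.55 (SE 0.09, adjusted p = 0.00227). Kars and the glycine enzyme gene Gars supply enzyme to the cytosol and to mitochondria, and Gars rose by 0.52 (SE 0.06, adjusted p = 0.000544). Sars, for serine, rose by 0.46 (SE 0.06, adjusted p = 0.00113). Nars, for asparagine, rose by 0.30 (SE 0.08) and had the highest signal of the class, 10.88, 10.80 and 10.87 in wild type and 11.02, 11.08, 11.27 and 11.23 in knockout. The knockout pairs were ordered differently between enzymes. Lars, for leucine, was 0.21, 0.21, 0.65 and 0.67 above the wild-type mean in knockout replicates 1 to 4, so it was highest in replicates 3 and 4, as were Iars (0.25, 0.20, 0.42 and 0.43) and Nars (0.17, 0.23, 0.42 and 0.39). Rars, for arginine, had the opposite order (0.66, 0.62, 0.24 and 0.27), as did Cars and Yars (0.51, 0.55, 0.26 and 0.36). Differences between the pairs were not tested.

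The other enzymes past the threshold were Rars at 0.45 (SE 0.12), Lars at 0.44 (SE 0.14), the tyrosine enzyme gene Yars at 0.42 (SE 0.09), the phenylalanine enzyme's beta subunit gene Farsb at 0.41 (SE 0.08), the isoleucine enzyme gene Iars at 0.32 (SE 0.08), the methionine enzyme gene Mars1 at 0.31 (SE 0.06) and the tryptophan enzyme gene Wars at 0.26 (SE 0.08), with adjusted p from 0.00562 to 0.0388. Aars, for alanine, did not pass, at 0.15 (SE 0.09, adjusted p = 0.202). Eprs, the joint enzyme for glutamate and proline, also missed the threshold, at 0.15 (SE 0.05, adjusted p = 0.0665), although its knockout arrays (10.29, 10.33, 10.34 and 10.35) lay above its wild-type arrays (10.22, 10.16 and 10.17). Its other probe sets, with lower signal, stood higher, at 0.26 and 0.40, each without overlap of the groups. Farsa, the alpha subunit of the phenylalanine enzyme, stood at 0.11 (95% interval -0.14 to 0.36) and Qars, for glutamine, at 0.03 (95% interval -0.10 to 0.17), and in both the groups overlapped. Without knockout replicates 1 and 2, 16 of 19 cytosolic synthetases were called higher (27.7% of all genes). Without knockout replicates 3 and 4 the number was also 16 (34.1% of all genes). It was 10 without wild-type replicate 2 and 10 without wild-type replicate 3. Over all genes, calls higher were fewer too in these fits without a wild-type array, at 1379 and 1404, against 2149 with every array.

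**Figure D2:**
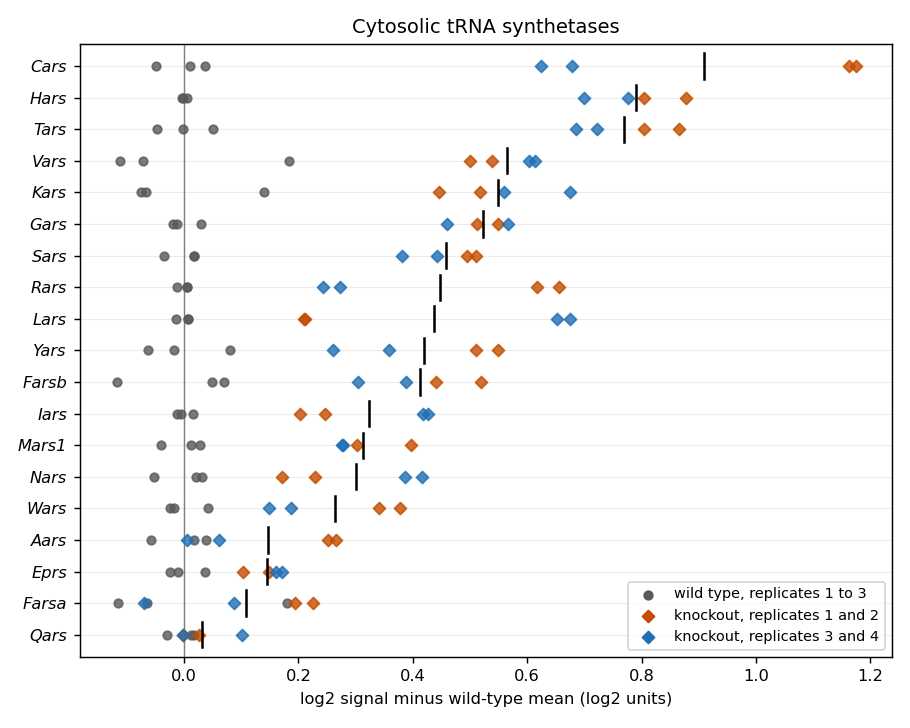
Each row is 1 cytosolic synthetase gene, the x axis is log2 signal minus that gene's wild-type mean, circles are the 3 wild-type arrays, diamonds the 4 knockout arrays (orange for replicates 1 and 2, blue for 3 and 4), and the black bar is the knockout mean. In 16 of the 19 rows (84.2%, against 26.5% of all genes) every diamond lies to the right of every circle, and the knockout means run from 0.03 for Qars to 0.91 for Cars.

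Several cytosolic synthetases are held together in the multi-synthetase complex. Its 7 measured enzyme genes (Eprs, Iars, Kars, Lars, Mars1, Qars and Rars) had a median difference of 0.32 with 5 called higher, and the 12 enzymes outside it had a median of 0.44 with 10 called higher (71.4% and 83.3%, against 21.5% of all genes). With random blocks 0 of the 7 and 3 of the 12 passed, where 4.48% of all genes were called higher. Enzymes inside and outside the complex were not compared by a test. Qars and Eprs, both in the complex, were among the 4 enzymes that did not pass by the probe set used. The complex's scaffold genes did not pass: Aimp1 stood at 0.01 (SE 0.06, adjusted p = 0.903), Aimp2 at 0.03 (SE 0.11, adjusted p = 0.819), and Eef1e1, which encodes another scaffold protein, at 0.18 (SE 0.07, adjusted p = 0.0680). Signals of Eef1e1 were 9.93, 9.93 and 9.94 in wild type and 10.02, 10.07, 10.14 and 10.21 in knockout, so the groups did not overlap although the threshold was missed.

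Promoter sequences are shown for synthetases that hold the core of the composite element bound by ATF4 with C/EBP proteins, because that factor is known to drive such genes. Sequences are RefSeq's for build GRCm38.p6, which listed a window of 250 bases before to 50 after a gene's start for 67 of the 87 genes, with several starts for some. The motif TGATGNAA, read on both strands, was present in 5 of 12 cytosolic synthetase genes with a window (41.7%: Aars, Gars, Iars, Tars and Yars), in 0 of 11 mitochondrial synthetase genes and in 1 of 36 initiation factor genes, against 4.51% of the 27025 genes in the table. The 5 with the motif had a median difference of 0.42 and the 7 without it 0.31. Cytosolic synthetases with no window, Cars among them, are in neither median, and the median of all 19 was also 0.42. The gap was not tested. CACGTG, the E-box that MYC family and related factors can bind, which reads the same on both strands and overlapped no match of the first motif, was present in 17 of 67 windows (25.4%, against 8.09% of all genes). Its holders had a median difference of 0.12 and the others 0.15. Capitals mark either motif, and a match is a description of these letters only. The upstream 250 bases of Aars (chr8:111033592-111033841, plus strand) hold both motifs, TTGCATCA being TGATGNAA on the other strand, while those of Gars (chr6:55037751-55038000, plus strand) and Tars (chr15:11399659-11399908, minus strand) hold the first. Windows of Aars and Tars hold a further match past the start, outside the bases printed (TTTCATCA in Aars, CACGTG in Tars).

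Aars: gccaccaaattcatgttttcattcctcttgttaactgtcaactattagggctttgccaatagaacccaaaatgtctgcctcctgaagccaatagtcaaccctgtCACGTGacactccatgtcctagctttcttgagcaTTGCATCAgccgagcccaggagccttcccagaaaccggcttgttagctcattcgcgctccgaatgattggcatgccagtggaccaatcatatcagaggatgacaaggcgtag
Gars: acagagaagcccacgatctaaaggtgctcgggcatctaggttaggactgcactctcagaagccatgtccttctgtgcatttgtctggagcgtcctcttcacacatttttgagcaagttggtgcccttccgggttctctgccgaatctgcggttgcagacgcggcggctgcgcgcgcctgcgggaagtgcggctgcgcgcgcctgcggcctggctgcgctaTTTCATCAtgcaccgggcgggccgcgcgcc
Tars: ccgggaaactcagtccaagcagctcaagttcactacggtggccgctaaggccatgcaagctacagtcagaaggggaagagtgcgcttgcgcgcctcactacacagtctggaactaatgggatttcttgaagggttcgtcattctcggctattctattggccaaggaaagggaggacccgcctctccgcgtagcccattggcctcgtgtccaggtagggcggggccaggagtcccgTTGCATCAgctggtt

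In Iars and Yars the match lies just past the listed start, so 30 bases around it are given, from chr13:49682126-49682155, plus strand, and chr4:129189895-129189924, plus strand. Both enzymes rose, as did Gars and Tars, while Aars did not pass.

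Iars: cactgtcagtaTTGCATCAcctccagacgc
Yars: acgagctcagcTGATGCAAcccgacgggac

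Mitochondrial synthetases, which charge the transfer RNAs encoded by the mitochondrial genome, moved in both directions. Of 13 genes 4 rose (30.8%, against 21.5% of all genes), 2 fell (15.4%, against 21.6%) and 7 did not pass. Fars2, the phenylalanine enzyme, rose most of all 87 genes, with 7.27, 7.02 and 6.94 in wild type and 8.07, 8.14, 7.90 and 7.93 in knockout, a difference of 0.94 (SE 0.10, adjusted p = 0.000534). Every knockout array lay above every wild-type array, and its adjusted p with random blocks was 0.0571. Ears2, for glutamate, rose by 0.43 (SE 0.08), Iars2, for isoleucine, by 0.34 (SE 0.10) and Rars2, for arginine, by 0.28 (SE 0.09). Cars2, the cysteine enzyme, fell, with 5.81, 5.41 and 5.53 in wild type and 4.67, 5.11, 5.05 and 5.14 in knockout, a difference of -0.59 (SE 0.14, adjusted p = 0.0149). Knockout replicate 1 was the lowest array, and the groups did not overlap. Lars2, for leucine, fell by 0.33 (SE 0.09, adjusted p = 0.0242).

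The 7 others ranged from -0.11 for Pars2 to 0.33 for Wars2, with Nars2 at 0.21, Hars2 at 0.17, Tars2 at 0.13, Yars2 at 0.04 and Vars2 at -0.05. Over all 13 mitochondrial enzymes the probe sets had a median signal rank at 40.8% of genes, against 91.9% for the cytosolic enzymes, so they lie nearer to background. With random blocks, 0 of the 13 passed, against 9.04% of all genes. Without knockout replicates 1 and 2, 4 were called higher and 2 lower (27.7% and 29.3% of all genes). Without replicates 3 and 4, 6 were called higher and 3 lower (34.1% each way).

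**Figure D3:**
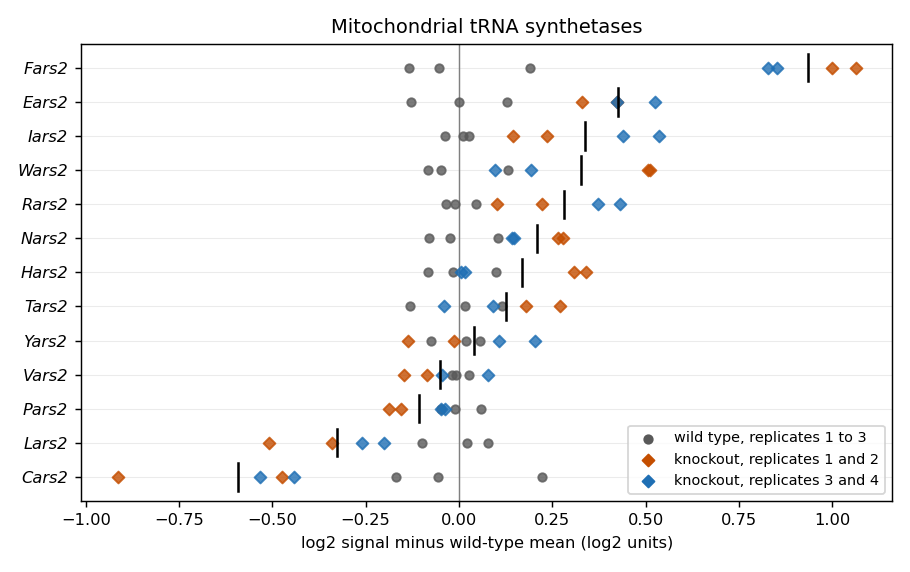
Rows are the 13 mitochondrial synthetase genes, and the x axis is log2 signal minus the gene's wild-type mean for 3 wild-type arrays (circles) and 4 knockout arrays (diamonds, orange for replicates 1 and 2, blue for 3 and 4), with the knockout mean as a black bar. Means run from -0.59 for Cars2 to 0.94 for Fars2, and in 6 of the 13 rows diamonds and circles overlap. Groups lie apart upwards in 38.5% and downwards in 15.4% of rows, against 26.5% and 27.9% of all genes.

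For several amino acids a cytosolic and a mitochondrial enzyme gene with matching names could be set side by side, and with the phenylalanine, glutamate and proline enzymes 14 pairings were possible. In 9 of 14 the cytosolic gene had the greater difference. Cysteine showed the widest gap, with Cars at 0.91 and Cars2 at -0.59. For leucine the values were 0.44 and -0.33, and for valine 0.56 and -0.05. Phenylalanine went the other way: Farsa stood at 0.11 and Farsb at 0.41, and Fars2 at 0.94. Taking the log2 ratio of cytosolic to mitochondrial signal in each array, all knockout arrays lay above all wild-type arrays in 7 pairings, below them in 3 and overlapped in 4. For single genes the groups did not overlap upwards in 26.5% and downwards in 27.9% of all genes. The share for ratios of other gene pairs was not counted, so these counts are not read as particular to the synthetases. These gaps were not tested, and 2 phenylalanine pairings share Fars2 while 2 share Eprs.

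The factors that run mitochondrial translation, a list set beside the synthetases, were also mixed. Of 14 measured genes 2 rose (14.3%, against 21.5% of all genes) and 1 fell (7.14%, against 21.6%), with a median of -0.04. Mtfmt, which formylates the mitochondrial initiator transfer RNA, rose by 0.49 (SE 0.07), and the elongation factor gene Tsfm rose by 0.25 (SE 0.07). Guf1, a ribosome-bound GTPase gene, fell by 0.75 (SE 0.21). Guf1 was dim, with a signal rank at 8.19% of genes. Its knockout replicates 1 and 2 read 3.56 and 3.44, near the limit of the lowest 5% of genes in knockout (3.49). With random blocks 0 of the 14 passed (against 9.04% of all genes), with adjusted p = 0.149 for Mtfmt, 0.480 for Tsfm and 0.143 for Guf1. Tufm, the mitochondrial counterpart of eEF1A, stood at -0.14 (SE 0.08, adjusted p = 0.184), Gfm1, that of eEF2, at 0.15 (SE 0.08) and the initiation factor gene Mtif2 at -0.09 (SE 0.09). The list's median per array was 0.06, near 0, -0.01 and -0.03 in knockout replicates 1 to 4.

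Of the 45 initiation factor genes 11 rose (24.4%, close to the 21.5% of all genes) and 5 fell (11.1%, against 21.6%). In the group that selects the start codon and carries the initiator transfer RNA, 2 of 10 rose and 2 fell (20.0% each, against 21.5% and 21.6% of all genes). With random blocks 0 of the 10 passed, against 9.04% of all genes. Eif2s2, the beta subunit of eIF2, rose from 12.11 ± 0.03 (SD, n = 3) to 12.38 ± 0.02 (SD, n = 4), by 0.27 (SE 0.05, adjusted p = 0.00641). The gamma subunit has an X-linked and a Y-linked gene: the Y-linked Eif2s3y read 7.51, 7.69 and 7.75 in wild type and 8.01, 7.94, 8.41 and 8.24 in knockout and rose by 0.50 (SE 0.13, adjusted p = 0.0179). Its X-linked copy Eif2s3x stood at -0.03 (95% interval -0.23 to 0.18), below the wild-type arrays in knockout replicates 1 and 2 and above them in 3 and 4. Its other probe sets stood at 0.06, with overlap, and, at lower signal, at 1.21 with all knockout arrays above wild type, so its direction is not settled. The copies are close in sequence, so cross-hybridisation between their probe sets cannot be told apart from their own signal. Eif1b, a close relative of the start codon scanning factor eIF1, fell by 0.60 (SE 0.09, adjusted p = 0.00240), with 9.71, 9.53 and 9.49 in wild type and 9.09, 9.09, 8.86 and 8.89 in knockout. Eif2d, which can deliver initiator transfer RNA without eIF2, fell by 0.24 (SE 0.05). Eif5, the GTPase activator of eIF2, stood at 0.28 (SE 0.11, adjusted p = 0.0698), with both groups apart in every array.

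Of the 5 genes of the exchange factor eIF2B, those of the gamma and alpha subunits rose (2 of 5, against 21.5% of all genes). Eif2b3 read 7.91, 7.80 and 7.77 in wild type and 8.46, 8.58, 8.17 and 8.25 in knockout, without overlap, and rose by 0.54 (SE 0.11, adjusted p = 0.00736). Eif2b1 rose by 0.35 (SE 0.09, adjusted p = 0.0177). The catalytic epsilon subunit gene Eif2b5 stood at 0.19 (SE 0.07, adjusted p = 0.0639), Eif2b2 at 0.16 (SE 0.11) and Eif2b4 at -0.11 (SE 0.07). The knockout arrays of Eif2b2 stood 0.29, 0.36, 0.07 and -0.07 from the wild-type mean in replicates 1 to 4, so replicates 1 and 2 were the highest. Of these genes 0 passed with random blocks, against 9.04% of all genes.

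Subunits of eIF3, the scaffold on the small ribosomal subunit, showed small differences in both directions. Of 11 genes 3 rose (27.3%, against 21.5% of all genes), 1 fell (9.09%, against 21.6%) and 7 did not pass. With random blocks 0 of the 11 passed, against 9.04% of all genes. Eif3d rose by 0.32 (SE 0.06), Eif3a by 0.21 (SE 0.06) and Eif3b by 0.20 (SE 0.07), while Eif3k fell by 0.27 (SE 0.07). Eif3e, with the highest signal of the group, stood at -0.02 (95% interval -0.15 to 0.12) and Eif3h at -0.0045 (95% interval -0.14 to 0.13). The remaining 5 lay between -0.23 for Eif3l and 0.15 for Eif3i.

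The strongest change among the initiation factors was the fall of Eif4b, which stimulates the helicase eIF4A. Its signal was 10.64, 10.66 and 10.65 in wild type and 9.03, 9.14, 9.97 and 9.93 in knockout, a difference of -1.13 (SE 0.25, adjusted p = 0.0104). Every knockout array lay below every wild-type array, and replicates 1 and 2 lay lowest. With random blocks its adjusted p was 0.0498. Among the other 8 cap-binding and helicase genes, Eif4e2, a cap-binding relative with a repressive role, rose by 0.25 (SE 0.08) and Eif4g2, a scaffold relative of eIF4G that does not bind eIF4E, rose by 0.23 (SE 0.08). The helicase gene Eif4a1 stood at 0.04 (95% interval -0.09 to 0.17) and its paralog Eif4a2 at 0.22 (SE 0.08, adjusted p = 0.0639). Eif4e, the cap-binding protein, stood at 0.33 (SE 0.15, adjusted p = 0.109), with 0.46, 0.67, 0.11 and 0.09 above the wild-type mean in knockout replicates 1 to 4. With random blocks Eif4e2 (adjusted p = 0.434) and Eif4g2 (0.419) did not pass. Eif4g3 (0.28), Eif4h (-0.04) and Eif4e3 (-0.14) did not pass either.

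The genes of the inhibitory 4E-binding proteins, which hold eIF4E away from eIF4G, moved in opposite directions. Eif4ebp1 rose, with 10.57, 10.55 and 10.54 in wild type and 11.27, 11.18, 11.12 and 11.11 in knockout, a difference of 0.62 (SE 0.06, adjusted p = 0.000420), and passed with random blocks (adjusted p = 0.0395). Eif4ebp1 is itself a known ATF4 target. Eif4ebp2 fell by 0.21 (SE 0.06, adjusted p = 0.0289), from 8.63, 8.53 and 8.57 to 8.43, 8.35, 8.38 and 8.30. In neither gene did the groups overlap. The 3 eIF2 kinase genes among the 87 did not pass: the amino acid sensor Eif2ak4 stood at -0.10 (SE 0.13), the heme sensor Eif2ak1 at -0.12 (SE 0.18) and the endoplasmic reticulum sensor Eif2ak3 at -0.18 (SE 0.14). Their knockout arrays split by pair, Eif2ak4 standing -0.35, -0.29, 0.16 and 0.07 from the wild-type mean in replicates 1 to 4 and Eif2ak1 0.04, 0.31, -0.43 and -0.38. Eif4enif1, which carries eIF4E into the nucleus, stood at 0.01 (95% interval -0.12 to 0.14).

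Of 4 genes that carry an initiation factor name but have other or less settled roles, Eif1ad rose. Its signals were 9.03, 9.11 and 9.05 in wild type and 10.00, 10.00, 9.68 and 9.68 in knockout, a difference of 0.77 (SE 0.11, adjusted p = 0.00140), and it passed with random blocks (adjusted p = 0.0281). A second, dimmer probe set of Eif1ad stood at -0.28 with overlapping groups, and the mean of both gave 0.25. Eif5a, the hypusine-bearing factor that helps ribosomes through difficult peptide bonds, stood at 0.12 (SE 0.06, adjusted p = 0.139), and Eif6, which keeps ribosomal subunits apart, at 0.25 (SE 0.15). Eif5a2 was dim, among the lowest 5% of genes in both groups.

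Of 5 core elongation factor genes 1 rose (20.0%, close to the 21.5% of all genes) and 0 fell (against 21.6%). Among the 5 modifier and scaffold genes 0 rose and 2 fell (against 21.5% and 21.6% of all genes), a kinase and a methyltransferase. These counts are small, and the contrast between core and modifier genes was not tested. Of the 10 elongation genes 1 rose (10.0%, against 21.5% of all genes) and 2 fell (20.0%, against 21.6%). Eef2k encodes the kinase that inhibits eEF2, and it had the largest difference of all 87 genes. Its signal was 6.49, 6.40 and 6.50 in wild type and 4.08, 4.08, 5.43 and 5.39 in knockout, a difference of -1.72 (SE 0.38, adjusted p = 0.0104). The pairs of knockout arrays were far apart, at -2.39, -2.39, -1.04 and -1.07 from the wild-type mean in replicates 1 to 4, yet all lay below wild type. With random blocks the adjusted p was 0.0398, and a second probe set of the gene, with lower signal, stood at -0.59 with overlapping groups. Eef1akmt1, which methylates a lysine of eEF1A, fell by a like amount in all 4 knockout arrays, with 8.93, 8.83 and 8.80 in wild type and 7.80, 7.73, 7.78 and 7.77 in knockout. Its difference was -1.09 (SE 0.06, adjusted p = 3.52e-05), with an adjusted p of 0.00651 with random blocks, and its other probe sets stood at -1.09 and -0.85.

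The 250 bases upstream of one of the 3 starts listed for Eef2k (chr7:120842581-120842830, plus strand) are shown because this gene had the largest difference, with an E-box in capitals. Another of its listed starts holds a TGATGNAA match.

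Eef2k: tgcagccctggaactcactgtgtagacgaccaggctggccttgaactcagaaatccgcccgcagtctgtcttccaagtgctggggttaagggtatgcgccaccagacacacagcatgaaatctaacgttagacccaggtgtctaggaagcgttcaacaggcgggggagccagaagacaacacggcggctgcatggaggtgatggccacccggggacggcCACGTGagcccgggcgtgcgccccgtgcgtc

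The gene Eef1a1, for the main carrier of charged transfer RNA, read 13.08, 13.10 and 13.09 in wild type and 13.20, 13.21, 13.11 and 13.16 in knockout, a difference of 0.08 (SE 0.06, adjusted p = 0.264). Its paralog Eef1a2, best known from muscle and neurons, rose by 0.26 (SE 0.07, adjusted p = 0.0218). The exchange factor genes Eef1b2 and Eef1d stood at 0.05 (SE 0.06) and -0.17 (SE 0.06). Eef2, the translocase, stood at 0.13 (95% interval -0.13 to 0.38), below the wild-type arrays in knockout replicates 1 and 2 and above them in 3 and 4. Eef1akmt2 (0.06) and Eef1aknmt (0.11), further methyltransferase genes for eEF1A, did not pass.

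**Figure D4:**
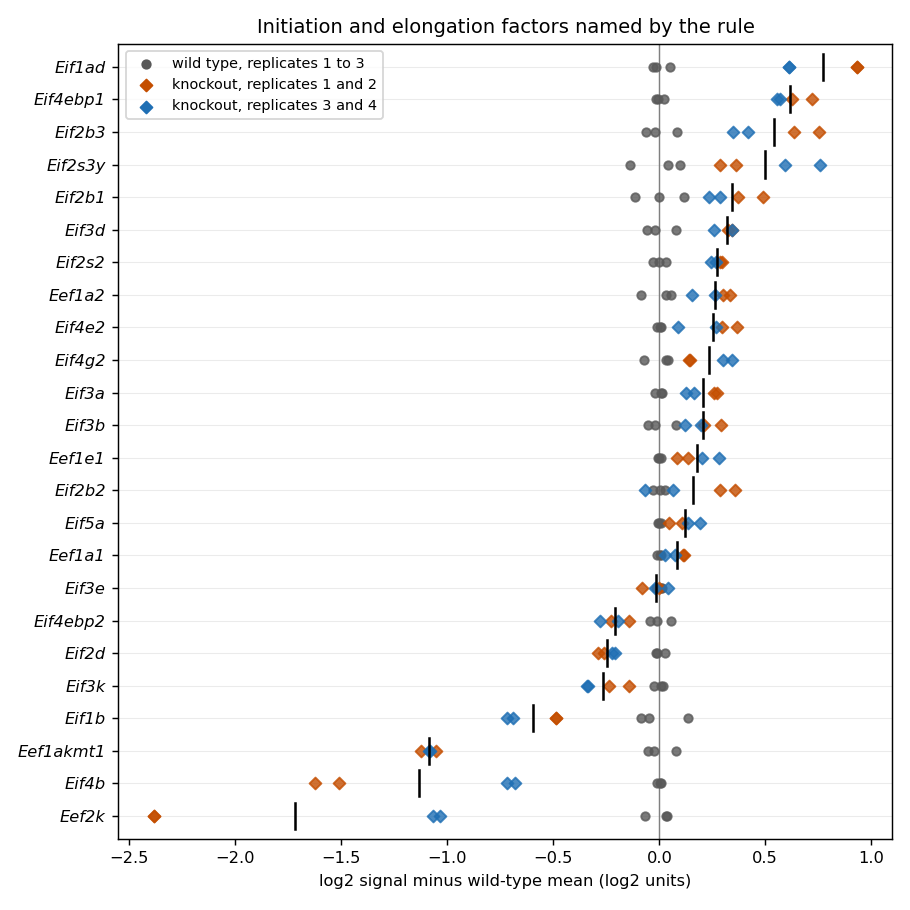
Rows are the initiation and elongation genes named by the rule, and the x axis is log2 signal minus each gene's wild-type mean, with circles for the 3 wild-type arrays, diamonds for the 4 knockout arrays (orange for replicates 1 and 2, blue for 3 and 4) and a black bar for the knockout mean. Eef2k, Eif4b and Eef1akmt1 stand at -1.72, -1.13 and -1.09, while Eif1ad stands highest at 0.77.

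Among the 87 genes 0 rises reached 2-fold, while 3 falls did (Eef2k, Eif4b and Eef1akmt1), against 3.75% and 3.81% of all genes. At 1.5-fold the counts were 6 rises (Fars2, Cars, Hars, Eif1ad, Tars and Eif4ebp1) and 5 falls: the 3 just named, Eif1b and Cars2, against 9.51% and 10% of all genes. With random blocks 8 of 87 genes passed, 5 higher and 3 lower (9.20%, against 9.04% of all genes, 4.48% higher and 4.56% lower): Cars, Hars, Tars, Eif1ad and Eif4ebp1 rose, and Eef2k, Eif4b and Eef1akmt1 fell. Without wild-type replicate 2 the rises numbered 17, and 19 without replicate 3, while without wild-type replicate 1 the falls numbered 5. Calls over all 9999 genes were fewer too, with 1379 and 1404 higher and 1510 lower in these fits, against 2149 and 2156. The 47 genes that did not pass had differences from -0.29 to 0.33, and for 39 of them the 95% interval stayed within 0.5 of 0. Over all 87 genes, called or not, the groups did not overlap in 44 upwards (50.6%, against 26.5% of all genes) and in 12 downwards (13.8%, against 27.9%), and 16 of these were among the 47.

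Release and recycling factors, with the synthetase scaffold and the enzymes that modify eIF5A and eEF2, rose in part. Of 20 measured genes 7 rose (35%, against 21.5% of all genes) and 0 fell (against 21.6%), with a median of 0.10. Denr, which helps recycle the small subunit, rose by 0.97 (SE 0.19), its partner's relative Mcts2 by 0.70 (SE 0.13) and Dph5, an enzyme of the diphthamide on eEF2, by 0.57 (SE 0.12). Mcts2 was dim, with a signal rank at 14.7% of genes. Dhps, the hypusine enzyme for eIF5A, and the release factor gene Etf1 rose by 0.52 and 0.48. With random blocks 1 of the 20 passed (5%, against 9.04% of all genes). It was Denr (adjusted p = 0.0449), while Mcts2 (0.150), Dph5 (0.146), Dhps (0.212) and Etf1 (0.115) did not pass. The poly(A)-binding protein gene Pabpc1 stood at -0.05 (95% interval -0.18 to 0.07) and Paip1, which binds it, at -1.13 (SE 0.42, adjusted p = 0.0662).

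Genes that set translation through mTORC1 and the MNK kinases went both ways. Of 19 measured 4 rose (21.1%, close to the 21.5% of all genes) and 5 fell (26.3%, against 21.6% of all genes), with a median of 0.03. Ddit4, an inhibitor of mTORC1, rose by 0.99 (SE 0.08), and Castor1, an arginine sensor gene, by 0.39 (SE 0.13), with Mknk1, a kinase of eIF4E, at 0.36 (SE 0.09). Pdcd4, which inhibits eIF4A, fell by 0.58 (SE 0.06), Tsc1, another brake on mTORC1, by 0.48 (SE 0.06) and Mknk2 by 0.39 (SE 0.11). With random blocks 1 of the 19 passed (5.26%, against 9.04% of all genes), the rise of Ddit4 (adjusted p = 0.0161), and 0 fell. The adjusted p was 0.0574 for Pdcd4, 0.0810 for Tsc1, 0.203 for Mknk2, 0.295 for Mknk1 and 0.318 for Castor1. Mtor itself stood at 0.08 (95% interval -0.05 to 0.22).

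The amino acid response that ATF4 controls was higher for most of its listed genes. Of 27 measured 17 rose (63.0%, against 21.5% of all genes), 3 fell (11.1%, against 21.6%) and 7 did not pass. The median was 0.46, with per-array medians of 0.43, 0.44, 0.55 and 0.52 in the knockout arrays. This list was chosen with earlier results of these arrays known and is no independent evidence. Slc7a11, a cystine importer, rose by 3.32 (SE 0.37), the cysteine-making enzyme gene Cth by 2.32 (SE 0.12) and the eIF2 phosphatase subunit gene Ppp1r15a by 1.78 (SE 0.35). Cth read 6.96, 6.95 and 6.91 in wild type and 9.49, 9.43, 9.06 and 9.08 in knockout, with no overlap. Asparagine synthetase, Asns, rose by 0.82 (SE 0.06) and the serine enzyme gene Psph by 1.44 (SE 0.07), both named after their values were seen. Besides Atf4, the listed genes that did not pass were Shmt2 (0.37), Cebpg (0.28), Slc38a2 (0.21), Sesn2 (0.18), Trib3 (0.10) and Phgdh (0.05). Atf4 itself did not pass, at 0.15 (SE 0.07, adjusted p = 0.0930), with 11.05, 11.04 and 11.05 in wild type and 11.10, 11.18, 11.24 and 11.28 in knockout. ATF4 protein was not measured, and its part in these differences was not tested. Atf5, a related factor, fell by 1.67 (SE 0.10), the arginine transporter gene Slc7a1 by 0.33 (SE 0.06) and the phosphatase subunit gene Ppp1r15b by 0.25 (SE 0.07). With random blocks 10 rose and 1 fell (37.0% and 3.7%, against 4.48% and 4.56% of all genes). No test compared this list with the synthetases.

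**Figure D5:**
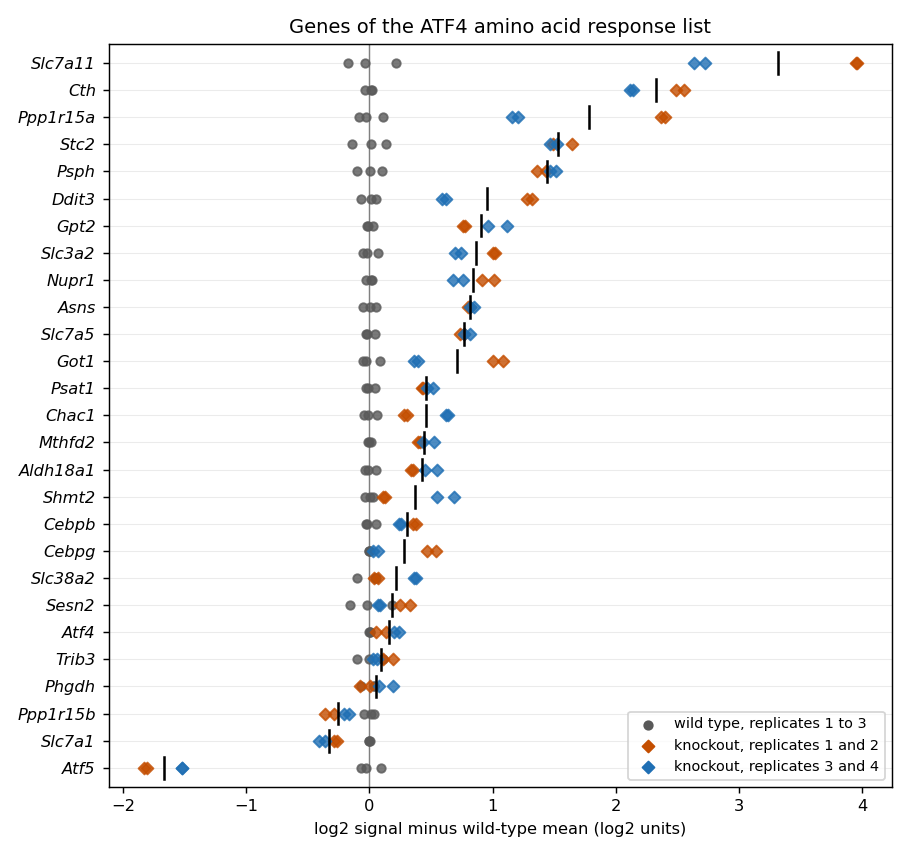
Rows are the 27 measured genes of the ATF4 amino acid response list, the x axis is log2 signal minus each gene's wild-type mean, circles are the 3 wild-type arrays, diamonds the 4 knockout arrays (orange for replicates 1 and 2, blue for 3 and 4), and the black bar is the knockout mean. Means run from -1.67 for Atf5 to 3.32 for Slc7a11, and Atf4 itself lies near 0, at 0.15.

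Each gene was read from its brightest probe set, and 47 of the 87 genes had more than 1. Probe sets of Hars stood at 0.79 each, those of Sars at 0.46 and 0.44, those of Iars at 0.32 and 0.30, and the 4 of Farsb between 0.18 and 0.49. Nars stood at 0.30 by the probe set used and at 0.71 by its other. Eif4b stood at -1.13, -0.72 and 0.06, so 1 of its 3 probe sets did not show the fall. In 4 genes probe sets pointed in opposite directions without overlap of the groups: Eif1ax (0.14 and -1.79), Eif4e (0.33, with others at 0.63, -0.60 and -0.77), Eif4g2 (0.23 and 0.20, with -0.38) and Eif5b (0.16 and -0.41). Averaging probe sets moved some other genes by over 1.5 times: Nars to 0.50, Eif4b to -0.60 and Eif4ebp2 to -0.50 kept their calls, while Eif2d (-0.11), Eif3a (0.05), Eif4e2 (0.10) and Eif4g2 (0.14) lost theirs. Eif2s2 moved less, to 0.30, but lost its call too (adjusted p = 0.0720). Which transcripts these probe sets read is not given in the sources used here.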

How the data were processed

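The authors deposited 1 column of normalized probe set signal per array, as intensity on a linear scale from 1.53 to 13508. Per the submitters' processing notes they used RMA (robust multi-array average); its version is not given in the sources used here. Column medians ran from 93.8 to 101. Its usual quantile step gives arrays a common distribution, which hides a change in total RNA. No detection calls were used, and with 7 arrays their number sets the precision.

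Values were taken to log2. A platform annotation gave 17335 of 19431 probe sets 1 gene symbol, 532 several and 1564 none; of the first, 17297 were found in RefSeq's GRCm38.p6 gene table and 0 symbols changed. Each of 9999 genes was represented by its probe set of highest mean over 7 arrays. The comparison of both genotypes used limma 3.58.1 under R 4.3.3 (2 groups, moderated two-sided tests, Benjamini-Hochberg over 9999 genes, threshold 0.05), also tested on simulated data. Random blocks were the wild-type arrays, knockout replicates 1 and 2, and knockout replicates 3 and 4 (duplicateCorrelation).

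The genes, lists, motifs and alternatives were chosen with earlier results of these data known. Per role, the text names genes past the threshold at 1.5-fold or more, up to 4 in each direction and the brightest, and the 12 largest rises and falls over the 87 genes, with paralogs named as pairs; from related lists, up to 3 in each direction. Other genes were named after their values were seen. Alternatives were 2 normalizations, a dim-gene filter, an intensity trend, array weights, averaged probe sets, a test against 1.2-fold, blocks, and arrays left out.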

Additional observations from a re-analysis of the deposited data

How the results depend on the processing

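The 31 rises and 9 falls numbered 33 and 10 after quantile normalization, 27 and 10 with arrays centred on their medians, 34 and 8 without genes under the 40th percentile, 36 and 11 with an intensity trend, 41 and 11 with array weights and 33 and 8 with averaged probe sets. They numbered 10 and 4 against a fold of 1.2 (all genes called: 1746 in place of 4305), 5 and 3 with random blocks (904), and 42 and 13 without knockout replicates 3 and 4 (6814). Leaving out 1 array gave 17 to 29 rises, 5 to 10 falls and 2879 to 4465 genes in all. A fixed replicate block gave 21 rises and 5 falls, with 3805 genes in all. Shared replicate numbers gave correlations of deviations of 0.12, -0.09 and 0.11. Wild-type replicate 1 gave 0.12 with knockout replicate 1 and with knockout replicate 2 alike. Because the knockout deviations follow the split between the pairs, this check cannot decide whether the numbers pair the arrays. Knockout replicate 4 has no wild-type partner. Without knockout replicates 3 and 4 the cytosolic synthetase median moved to 0.48 and the elongation factor median to -0.0013. With averaged probe sets the initiation median moved to 0.0115 and the mitochondrial synthetase median to 0.0684. Leaving out 1 array gave medians of 0.38 to 0.44 for cytosolic synthetases, 0.11 to 0.22 for mitochondrial ones, 0.10 to 0.12 for initiation factors and 0.05 to 0.08 for elongation factors. Without Gars and Kars the cytosolic median was 0.41. Eif3e, near 0, changed sign with averaged probe sets (0.0240), without knockout replicates 1 and 2 (0.0109) and without replicate 1 (leaving out 1 array gave -0.0347 to 0.0068), and Eif2b2 without knockout replicates 1 and 2 (-0.0011). Of the 38 genes named by the rule, 25 lost their call with random blocks, 12 with the replicate block and 19 against a fold of 1.2. Apart from the construction of each alternative (fewer arrays or a higher bar), the cause was not tested.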

Other observations

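Probe sets that name a translation gene together with another gene were left out of the comparisons, 8 in all. The probe set shared by Eef1g and Gm29753 stood at 12.20, 12.18 and 12.21 in wild type and 12.07, 12.08, 12.11 and 12.12 in the knockout arrays, and that of Eif4a3 and Gm5576 at 10.24, 10.18 and 10.20 against 10.11, 10.08, 9.98 and 10.08. The probe set shared by Eif4ebp3 and Ankhd1 stood 0.54, 0.61, 0.25 and 0.24 above the wild-type mean in knockout replicates 1 to 4. For the brightest probe set shared by Eif3j1 and Eif3j2 the values were -0.32, -0.37, 0.02 and -0.04, so knockout replicates 1 and 2 stood below replicates 3 and 4. None of these was tested.

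Among the 87 genes, 5 had knockout replicates 1 and 2 below all wild-type arrays and replicates 3 and 4 above them: Eef2, Eif4h, Eif2ak4, Eif2a and Eif2s3x. None had the reverse order. The share of all genes with either order was not counted, so neither count is read as particular to the translation genes. The 5 genes were chosen after their values were seen, and the difference between the pairs was not tested.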
